A study of Mus musculus with 10 samples.

Results

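The MYC, USF, MITF and TFE factors are transcription factors that read the same short DNA word, the E-box, and they were followed here as RNA and as footprints in cultured aortic smooth muscle cells. Their members were taken by name: 10 genes (Myc, Mycn, Max, Mxi1, Usf1, Usf2, Mitf, Tfe3, Tfeb and Tfec) of the 36144 in the expression table, and 11 motifs that carry one of these names of the 879 in the footprint table. The rule uses names and no measured value. The cells were primary vascular smooth muscle cells from the aortas of 8-week-old male mice, used between passages 2 and 7, either wild type or with Adamts7 overexpression driven through Myh11-Cre-ERT2. Adamts7 is a secreted metalloprotease, and Myh11-Cre-ERT2 is a tamoxifen-dependent recombinase made in smooth muscle. The labels name the Cre allele only for the overexpression mice and say nothing of tamoxifen, so the effects of overexpression, Cre and any tamoxifen cannot be told apart. RNA came from 3 mice per genotype. ATAC-seq, which maps open chromatin and the protected footprints of bound proteins within it, came from 50000 cells of each of 2 mice per genotype, and the footprint values are merged over those mice.

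An E-box is the palindrome CACGTG, or a close variant, and proteins with a basic helix-loop-helix and a leucine zipper bind it as pairs. MYC and MYCN drive growth genes only when paired with MAX, while MXI1 takes MAX for itself and represses the same sites. USF1 and USF2 are ubiquitous and pair with each other. MITF, TFE3, TFEB and TFEC form the MiT/TFE family, which pair among themselves, switch on lysosome and autophagy genes when nutrient signalling through mTORC1 falls, and in MITF's case also specify melanocytes and osteoclasts.

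What tells these families apart on DNA lies largely in the bases beside the E-box, so the sites themselves are shown here first. MiT/TFE factors favour a T before and an A after the word, whereas MYC with MAX does not need that flank. The stretches below are RefSeq promoter sequence of mouse build GRCm38.p6, written 5′ to 3′ on the strand of the gene, with the E-box in capitals. Promoter windows here run from 250 bases before to 50 after a transcription start. Myc and Usf2 have no promoter entry used here. Of the 8 members with one, only Max has this word in such a window. Its site begins 3 bases before the start used for this window. The site lies inside the gene position given for Max below.
Max, chr12:76962234-76962263, minus strand: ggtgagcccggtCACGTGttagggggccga
The next 4 are lysosomal genes of the CLEAR network, the lysosome and autophagy genes under TFEB control, with an E-box that has T before and A after it. Ctsd has no other E-box in its window, Gla has another with this flank, and Mcoln1 and Cln3 each have another without it.
Ctsd, chr7:142387908-142387937, minus strand: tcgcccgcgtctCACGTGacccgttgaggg
Gla, chrX:134601182-134601211, minus strand: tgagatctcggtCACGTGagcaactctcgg
Mcoln1, chr8:3500462-3500491, plus strand: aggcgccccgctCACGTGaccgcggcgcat
Cln3, chr7:126583340-126583369, minus strand: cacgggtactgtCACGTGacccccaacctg
The last 3 are growth genes from the list of MYC targets.
Cdk4, chr10:127063405-127063434, plus strand: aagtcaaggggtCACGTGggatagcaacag
Nme1, chr11:93968037-93968066, minus strand: agcttgatacgcCACGTGggctcgcctttg
Ldha, chr7:46845744-46845773, plus strand: cggcccagcctaCACGTGggttcccgcacg

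The word CACGTG, searched on both strands (it reads the same on each), was present in the promoter of 14 of 30 CLEAR genes with a promoter entry (46.7%). It was present in 6 of 22 MYC targets (27.3%), in 7 of 18 genes of the nutrient pathway that controls MiT/TFE (38.9%) and in 4 of 9 partners of MAX and MLX (44.4%). The USF targets had 2 of 7 (28.6%), other factors that bind the word 1 of 6 (16.7%) and the MITF targets 1 of 7 (14.3%). Of all 9906 tested genes with an entry, 11.7% held it, as did 7.15% of all promoter windows in the RefSeq set. The longer word TCACGTGA, which contains CACGTG, was in 8 of the 30 CLEAR genes (26.7%), in 0 of the 22 MYC targets and in 2.19% of the tested genes. Counted over sites, 10 of 22 E-boxes in CLEAR promoters had T before and A after, against 0 of 12 in MYC target promoters. CLEAR genes were named for this shared word, so their share describes the list and is no independent finding. Of the 8 members with a promoter entry, only Max held CACGTG. The variant CATGTG (or CACATG on the other strand), a word that MITF also reads, occurred once, in Mxi1, 123 bases before one of its starts, and in 14.2% of all windows. A matching word is a description of sequence, not evidence of binding.

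The overexpression label held in the RNA: Adamts7 was between 75.8 and 98.7 TPM (a level scaled to gene length and library total) in the overexpression libraries and between 6.08 and 8.20 TPM in wild type. limma gave an adjusted p of 0.000357, and a two-sided exact permutation test gave p = 0.1, the smallest value that 3 against 3 allows. Titles of these libraries start with the abbreviation used for wild type, so the genotype label was followed. All 9 smooth muscle markers passed the filter, with a summed level between 2458 and 2602 TPM in wild type and between 2917 and 4633 TPM in overexpression libraries. Markers of other cells were present too, and in wild type the endothelial sum lay above that of smooth muscle. The 10 endothelial markers had a summed level between 4409 and 4912 TPM in wild type and between 2258 and 3726 TPM in overexpression. By limma 8 of these 10 were lower at an unadjusted p under 0.05, where 8.94% of all tested genes were. For the 18 macrophage markers it lay between 495 and 733 TPM and between 1174 and 3733 TPM. All 18 macrophage markers lay higher in every overexpression library than in any wild-type library, where 14.3% of all tested genes did. The median log2 fold change of the 18 was 1.59. Their median relative to wild type was 2.16 and 1.98 in overexpression replicates 1 and 2 but 0.68 in replicate 3, so replicate 3 stood nearer to wild type. In bulk RNA, fewer cells of a type and less RNA per cell cannot be told apart.

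RNA of all 10 members passed the filter of a mean of at least 1 TPM, and their levels spanned a wide range. In wild type the order from highest to lowest was Usf2, Max, Tfe3, Myc, Usf1, Mycn, Mxi1, Tfeb, Tfec and Mitf, from 162 ± 15.2 TPM for Usf2 to 2.35 ± 0.074 TPM for Mitf (SD, n = 3). Neighbours in this order did not overlap between libraries except Tfe3 with Myc and Tfeb with Tfec. In the overexpression cultures Usf2, at 154 TPM, and Max, at 90.9 TPM, were again on top and Mitf, at 3.84 TPM, last. There Tfe3, Usf1 and Myc, at 47.5, 47.4 and 46.9 TPM, overlapped as neighbours, as did Mxi1 with Mycn and Tfec with Mitf.

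**Figure D1:**
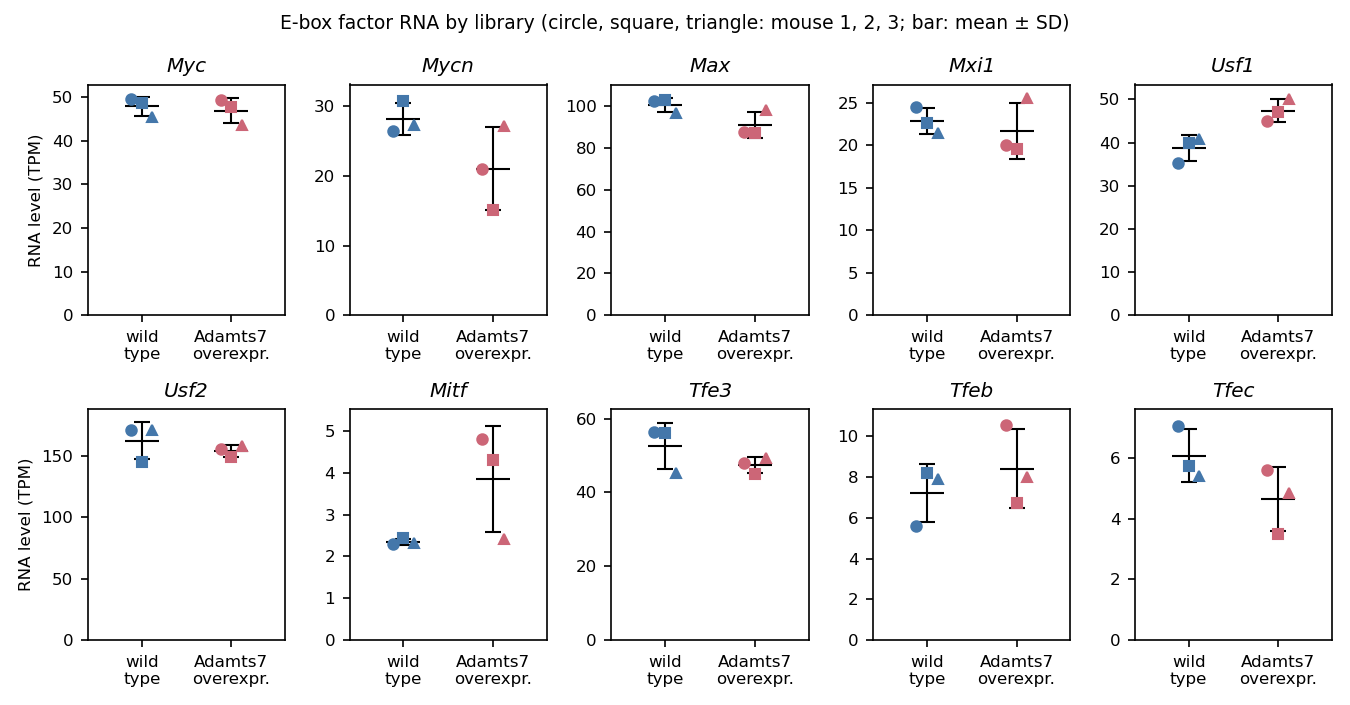
RNA level (TPM, each axis from 0) of the 10 E-box factor genes in the 3 wild-type and 3 Adamts7 overexpression libraries, with points for libraries and bars for the mean ± SD. Only for Usf1 do the libraries of the genotypes not overlap, with 35.3 to 40.8 TPM in wild type and 44.9 to 50.2 TPM in overexpression; for Mitf and Mycn overexpression replicate 3 (triangle) sits at the wild-type level.

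None of the 10 members was called between the genotypes by limma (adjusted p under 0.05), where 0.0152% of all 13131 tested genes were called. At an unadjusted p under 0.05 there was 1 member, Usf1, higher in overexpression. Of all tested genes 19.5% had such a p, 10.6% higher and 8.94% lower, so 1 of 10 was no more than the background. Usf1 was also the only member without overlap between the genotypes, where 14.3% of all tested genes were higher without overlap and 12.9% lower. The median log2 fold change on the log2(TPM + 1) scale was -0.073 over the members and -0.0090 over all tested genes, with 3 members higher and 7 lower. Without overexpression replicate 3, 4 members (Mycn, Max, Usf1 and Mitf) had an unadjusted p under 0.05, where 25.6% of all tested genes did. With libraries weighted by quality, Mitf, Mycn, Max and Usf1 passed the adjusted threshold, and so did 2728 of all tested genes. Those weights were estimated from the same 6 libraries. They were 5.66, 0.28 and 0.49 for overexpression replicates 1, 2 and 3, and 0.66, 1.54 and 1.28 for those of wild type. On the overexpression side that fit thus rests mostly on replicate 1.

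Gene positions below are those of RefSeq on build GRCm38.p6. In the USF pair, the lesser transcript was higher without overlap, and the major one overlapped. Usf1 (chr1:171411307-171418954) stood at 35.3, 39.9 and 40.8 TPM in wild type and at 44.9, 47.0 and 50.2 TPM in overexpression. All 3 overexpression libraries were above all 3 of wild type, with a log2 fold change of 0.29 ± 0.082 (SE), a 95% interval of 0.095 to 0.48, an unadjusted p of 0.00925 and an adjusted p of 0.151 by limma. That p was under 0.05 in all 14 alternative fits, while the adjusted p ranged from 0.049 to 0.353 and passed only with libraries weighted by quality. Usf2 (chr7:30945248-30956951), the more abundant partner, stood at 171, 145 and 171 TPM in wild type and at 155, 149 and 158 TPM in overexpression. Its overexpression libraries all lay within the wild-type range, and its log2 fold change of -0.070 had an interval of -0.26 to 0.12 and was -0.15 without the second wild-type library. It was -0.030 without wild-type replicate 1 or 3, and -0.046 without overexpression replicate 2. Usf1 made up 17.1% to 21.6% of the summed USF RNA in wild type and 22.4% to 24.1% in overexpression, while the sum itself was 201 ± 14.4 and 201 ± 6.31 TPM (SD, n = 3 each).

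In the MYC network, with all libraries, Myc had the fold change closest to 0 of all members and Mycn the lowest. Without overexpression replicate 1, Tfec was lower than Mycn (-0.46 against -0.45). There Mxi1 (-0.027) and Tfeb (0.033) were closer to 0 than Myc (-0.068). So were Usf2 without wild-type replicate 3 (-0.030 against -0.068) and Mxi1 without overexpression replicate 2 (-0.010 against -0.045). Myc (chr15:61985341-61990361), the general growth regulator, stood at 49.5, 48.7 and 45.5 TPM in wild type and at 49.2, 47.7 and 43.6 TPM in overexpression. The genotypes overlapped almost wholly, and the interval of its log2 fold change ran from -0.20 to 0.14. Mycn (chr12:12936093-12941836), its paralog best known from embryonic and neural growth, stood at 26.4, 30.7 and 27.3 TPM in wild type and at 21.0, 15.1 and 27.1 TPM in overexpression. Overexpression replicates 1 and 2 were below every wild-type library and replicate 3 was not. The log2 fold change was -0.44 ± 0.19 (SE; limma adjusted p = 0.261), -0.23 without overexpression replicate 2 and -0.63 without replicate 3 (adjusted p = 0.0581). Mycn took 34.8% to 38.7% of the summed Myc and Mycn RNA in wild type, and 29.9%, 24.1% and 38.3% in overexpression replicates 1, 2 and 3. The endothelial marker sum had the same order as Mycn there, at 3080, 2258 and 3726 TPM. In replicate 3, however, that sum was below every wild-type library and Mycn was not. The part of endothelial RNA in the Mycn value was not tested.

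Max (chr12:76937269-76962323), the partner that MYC, MYCN and MXI1 all need, was the more abundant side of the pair in every library, at 1.25 to 1.39 times the sum of Myc and Mycn. It stood at 102, 103 and 96.8 TPM in wild type and at 87.5, 87.0 and 98.3 TPM in overexpression, with replicate 3 again inside the wild-type range. Its log2 fold change was -0.15 with an interval of -0.31 to 0.016. Mxi1 (chr19:53310128-53373293), the MAX-bound repressor, stood at 24.5, 22.6 and 21.4 TPM in wild type and at 20.0, 19.6 and 25.5 TPM in overexpression, with the lowest and highest values both in overexpression and a log2 fold change of -0.077. It was -0.19 without overexpression replicate 3, -0.12 without wild-type replicate 3, and between -0.027 and -0.010 without overexpression replicate 1 or 2 or wild-type replicate 1.

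In the MiT/TFE family, Tfe3 was the main transcript, and Mitf had the fold change farthest from 0 with all libraries, although Tfec was farther without overexpression replicate 1 (-0.46) and under quantile normalisation (-0.41, with Mitf at 0.40). Tfe3 (chrX:7762530-7775202) stood at 56.4, 56.0 and 45.4 TPM in wild type and at 47.9, 45.0 and 49.4 TPM in overexpression, overlapping, with a log2 fold change of -0.14, which was -0.24 without wild-type replicate 3 and -0.087 and -0.091 without wild-type replicates 1 and 2. It made up 69.6% to 79.0% of the family's summed RNA over the 6 libraries. Mitf (chr6:97807002-98021360) stood at 2.29, 2.43 and 2.32 TPM in wild type and at 4.82, 4.31 and 2.41 TPM in overexpression. Replicates 1 and 2 were clearly above wild type, and replicate 3 lay within it. The log2 fold change was 0.50 ± 0.22 (SE) with an interval of -0.0081 to 1.00 and an adjusted p of 0.26 by limma. Without overexpression replicate 3 it was 0.73 and passed limma's threshold (adjusted p = 0.0375); without replicate 1 it was 0.35. The Mitf share of the family was 3.21% to 3.81% in wild type and 6.99%, 7.23% and 3.72% in overexpression replicates 1, 2 and 3.

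Tfeb (chr17:47737037-47792416), the best studied regulator of lysosome genes, stood at 5.60, 8.17 and 7.88 TPM in wild type and at 10.5, 6.72 and 7.98 TPM in overexpression. The genotypes overlapped, with a log2 fold change of 0.19 and an interval of -0.26 to 0.64. It was 0.033 without overexpression replicate 1, 0.040 without wild-type replicate 1 and 0.32 without overexpression replicate 2. Tfec (chr6:16830927-16898464), a family member expressed mainly in macrophages, stood at 7.07, 5.74 and 5.43 TPM in wild type and at 5.60, 3.51 and 4.84 TPM in overexpression. Its values overlapped as well, with a log2 fold change of -0.34 and an interval of -0.74 to 0.071. It was -0.18 without overexpression replicate 2 and -0.091 with quality weights. Mitf and Tfec thus lay on opposite sides of wild type in overexpression replicate 2, at 4.31 and 3.51 TPM.

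The macrophage markers were highest in the overexpression libraries with the most Mitf. Their summed level was 3733, 3030 and 1174 TPM in overexpression replicates 1, 2 and 3, and Mitf had the same order there. In replicate 3, however, the marker sum was above every wild-type library and Mitf was not. Their part in the Mitf value was not tested. Melanocyte markers, which mark the cell type that Mitf specifies, were at or near 0: Slc45a2 was listed at 0 in all 6 libraries, Sox10, Tyr, Tyrp1 and Mlana had group means of at most 0.166 TPM, and Dct had a mean of 0.824 TPM in the wild-type and of 0.731 TPM in the overexpression libraries. Kit, which other cells also express, lay between 10.4 and 18.7 TPM and Pmel between 0.763 and 2.51 TPM over the 6 libraries, both overlapping. Of the 6 osteoclast markers, Acp5 lay between 5.02 and 7.24 TPM and Ctsk between 2.90 and 10.9 TPM over the libraries, and 4 were below the filter. Of those, Calcr was listed at 0 in every overexpression library and Dcstamp in every wild-type library, with 0.0736 to 0.373 TPM in overexpression. The list's summed level lay between 9.92 and 11.2 TPM in wild type and between 10.9 and 17.4 TPM in overexpression.

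**Figure D2:**
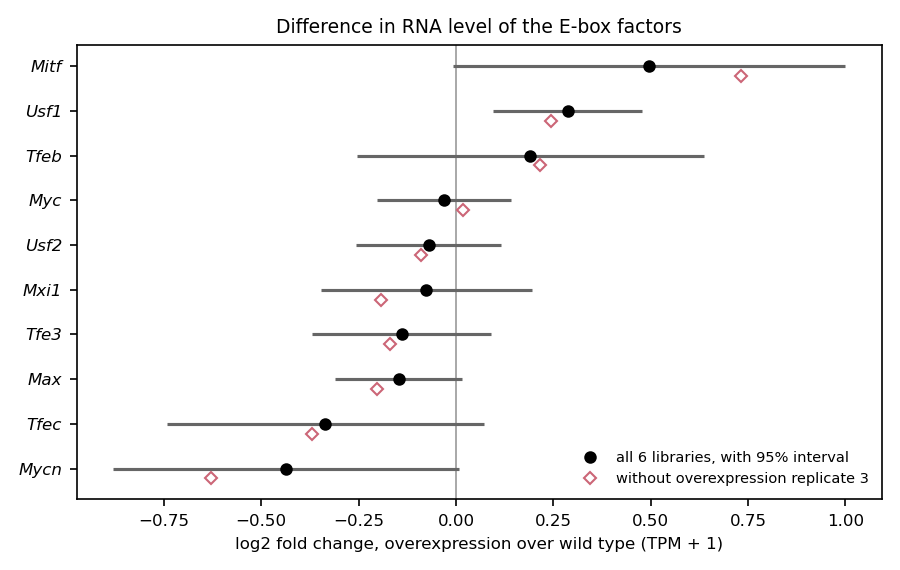
Log2 fold change on the log2(TPM + 1) scale, overexpression over wild type, for each E-box factor gene with its 95% interval from limma (black, 3 against 3 libraries) and the value without overexpression replicate 3 (open diamond). The interval of Usf1 alone lies wholly on one side of 0, and the values of Mitf and Mycn lie farther from 0 without that library, at 0.73 and -0.63.

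The profiles most like those of the 3 members with the widest range over the 6 libraries were found by the root mean square difference of log2(TPM + 1) after centring, over all tested genes. For Mycn these were Lbh, Il27ra and Rps6ka2, at 0.035, 0.039 and 0.044. For Tfec they were Map3k9, Taf4 and Vps13a, at 0.038, 0.043 and 0.050. For Mitf they were Tmem106a, Foxs1 and Tent5a, at 0.068, 0.072 and 0.075. Foxs1, for example, stood at 5.07, 5.47 and 5.99 TPM in wild type and at 10.3, 9.69 and 5.21 TPM in overexpression, with replicate 3 at the wild-type level as for Mitf.

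At the footprint level the MYC and MAX motifs were lower in the overexpression cultures, and the USF and MiT/TFE motifs lay nearer to no difference. Each value is a mean footprint score over all sites of a motif, with 1 merged value per genotype, so no replicate error can be given and no test was made. The score of the MYC motif was 0.282 in wild type and 0.256 in overexpression over 10259 sites, a log2 ratio of -0.14. MYCN had 0.282 and 0.256 over 6003 sites (-0.14), and MAX 0.281 and 0.255 over 16220 sites (-0.14). The composite MAX::MYC motif had 0.249 and 0.233 over 12238 sites (-0.097). MXI1 had the lowest ratio of the members, with 0.205 and 0.184 over 74204 sites (-0.16), and also the lowest wild-type score. Among all 879 motifs ordered from the lowest ratio, MXI1 was at rank 36, MYCN at 46, MYC at 47, MAX at 48 and MAX::MYC at 118.

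The USF and MiT/TFE motifs had log2 ratios closer to 0. USF1 had 0.231 in wild type and 0.227 in overexpression over 20461 sites, and USF2 0.298 and 0.292 over 6596 sites, with log2 ratios of -0.023 and -0.027. TFE3 had 0.294 and 0.286 over 8331 sites (-0.038), TFEB 0.248 and 0.241 over 16297 sites (-0.042), and TFEC 0.275 and 0.265 over 11104 sites (-0.053). MITF was the only member motif with a ratio above 0, at 0.2600 and 0.2603 over 10118 sites (0.0018). Of the 11 motifs, 4 were at or under a log2 ratio of -0.1, where 12.5% of all motifs were, and 0 at or over 0.1, where 36.3% of all motifs were. These 4 were MYC, MYCN, MAX and MXI1.

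The wild-type score of a motif went along with its ratio, as the plot of all motifs shows, so motifs of like score are the closer yardstick. The median log2 ratio was -0.053 over the 11 member motifs, 0.033 over all motifs and -0.049 over the 354 other motifs within the members' range of wild-type scores. Against motifs of like score, the median of the members as a whole was therefore nearly the same. The 4 MYC and MAX motifs had a median of -0.14, beside -0.043 over the 95 other motifs in their score range, of which 29.5% were at or under -0.1. The 6 USF and MiT/TFE motifs had a median of -0.033, beside -0.061 over the 208 other motifs in theirs.

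**Figure D3:**
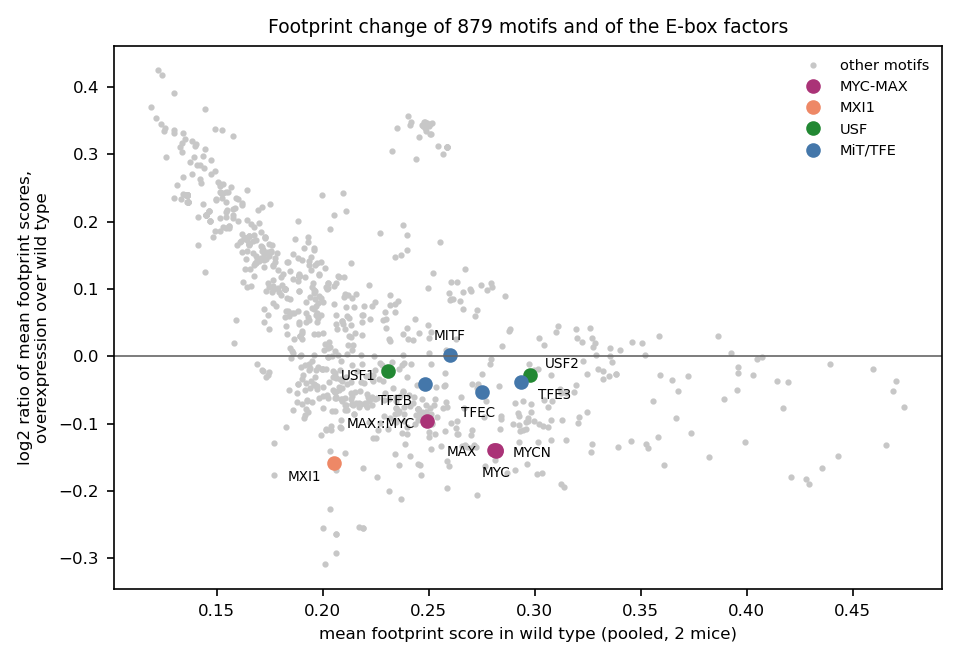
Log2 ratio of the mean footprint score, overexpression over wild type, against the wild-type score for all 879 motifs (grey) and the 11 E-box factor motifs (coloured by family), each 1 value merged over 2 mice per genotype. MYC, MYCN and MAX lie together at -0.14 and MXI1 at -0.16, while USF and MiT/TFE motifs lie between -0.053 and 0.0018.

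The motifs are not independent of one another. The authors' deposited table places MYC, MYCN and MAX in 1 cluster of 15 motifs, and USF1, USF2, MITF, TFE3, TFEB and TFEC in another of 8. The row of MAX holds the same sites, scores and bound counts as the rows of MNT, Arnt and Mlxip, so a footprint at this motif cannot be assigned to MAX. All 15 motifs of the MYC cluster had a ratio below 0, from -0.20 for SOHLH2 to -0.066 for MLX, and CLOCK, Npas2 and BHLHE40, factors of the circadian clock and its output, were at -0.16, -0.20 and -0.16. In the USF and MiT/TFE cluster the ratios ran from -0.065 for BHLHE41 to 0.0018 for MITF.

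By the number of sites called bound, MYC, MYCN and MAX again had the lowest ratios, while MXI1, lowest by mean score, did not. Of the MYC sites 16.6% were called bound in wild type (95% Wilson interval 15.9% to 17.3%) and 14.4% in overexpression (13.7% to 15.1%), which is 1702 and 1475 sites. For MYCN the share was 16.7% (15.8% to 17.7%) and 14.2% (13.3% to 15.1%), and for MAX 16.6% (16.1% to 17.2%) and 14.6% (14.1% to 15.1%). The intervals of these 3 motifs did not overlap, where 19.6% of all motifs were lower without overlap and 48.4% of the other motifs in the score range of MYC and MAX. The log2 ratio of bound sites was -0.21 for MYC, -0.24 for MYCN and -0.19 for MAX, beside a median of 0.070 over all motifs and -0.081 over those others. They cover counting error only, not differences between mice. The share of MXI1 sites was 6.23% and 6.08%, with overlapping intervals, although its mean score had the lowest ratio. For MAX::MYC it was 12.6% and 11.7%.

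Bound shares of the other members overlapped between the genotypes. For MITF they were 15.2% (14.5% to 15.9%) and 15.0% (14.3% to 15.7%), and for USF1, the only motif with more bound sites in overexpression (26 more), 10.8% and 10.9%. USF2 had 20.1% and 19.4%, TFE3 19.1% and 18.4%, TFEB 13.2% and 12.6%, and TFEC 16.7% and 15.7%. Relative to the wild-type count, 13.3% fewer MYC sites, 15.3% fewer MYCN sites and 12.2% fewer MAX sites were bound, against at most 6.70% fewer for any other member motif.

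**Figure D4:**
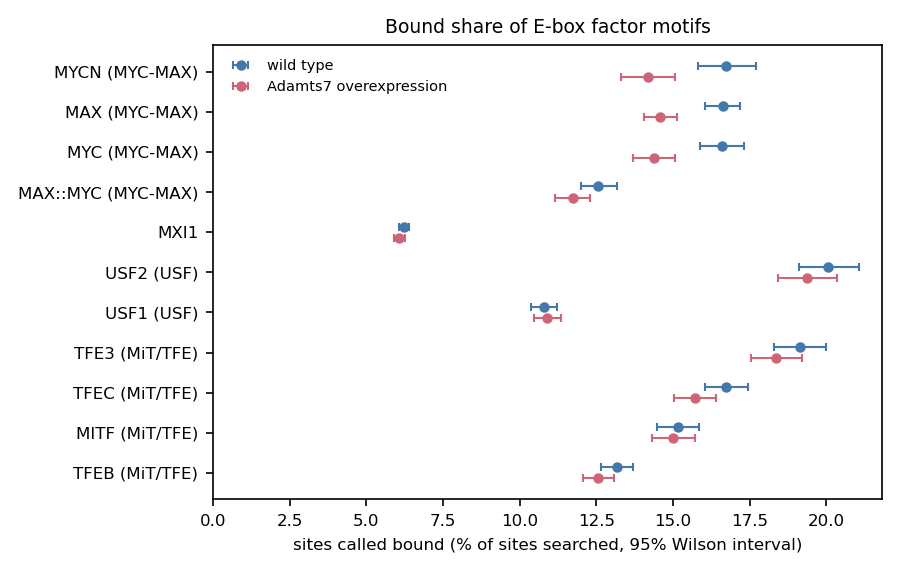
Share of motif sites called bound (%, axis from 0) in wild type and overexpression for the 11 E-box factor motifs, merged over 2 mice per genotype, with 95% Wilson intervals for counting error only. For MYCN, MAX and MYC the wild-type share of 16.6% to 16.7% lies above the overexpression share of 14.2% to 14.6% with no overlap; the other intervals overlap.

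In the authors' deposited table the change score, with its sign set so that a value above 0 is higher in overexpression, was -0.22 for MXI1, -0.22 for MYC, -0.21 for MAX, -0.20 for MYCN and -0.12 for MAX::MYC. For the other motifs the same table gives -0.055 for TFEC, -0.030 for TFEB, -0.020 for TFE3, -0.012 for USF1, 0.0079 for USF2 and 0.044 for MITF. USF2 is thus above 0 on that score and below 0 by the ratio of means. The p-values in the authors' deposited table run from 4.88e-180 for MXI1 to 6.68e-13 for USF2. Over merged mice they do not measure differences between animals. MXI1 is the only member motif singled out for display in the authors' deposited table.

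Side by side, RNA and motif lay on the same side of 0 for 8 of the 10 factors, 7 of them lower in both. Most of these values were small, and they were untested together. Since 10 of the 11 member motifs and the RNA of 7 of the 10 members were below 0, most factors would share a side without any link. The count is therefore no sign that RNA and motif go together. Myc RNA had a log2 fold change of -0.032, and its motif a log2 ratio of -0.14. Mycn and Max RNA were at -0.44 and -0.15 and their motifs at -0.14 each. Usf1 RNA was at 0.29 and its motif at -0.023, and Mitf RNA at 0.50 and its motif at 0.0018. Tfeb, with 0.19 and -0.042, was the other factor whose RNA and motif lay on opposite sides of 0. Mxi1, Usf2, Tfe3 and Tfec were lower in both, with RNA at -0.077, -0.070, -0.14 and -0.34.

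None of the tested partners and relatives of the factors was called by limma. Of 8 tested partners of MAX and MLX, 1 was lower at an unadjusted p under 0.05, where 8.94% of all tested genes were, and 0 higher, with a median log2 fold change of -0.096. Without wild-type replicate 1 the count was 0, where 13.9% of all tested genes had such a p in either direction. The gene lower with all libraries was Mnt, another MAX-bound repressor, at 28.9, 24.3 and 24.5 TPM in wild type and at 19.8, 21.7 and 21.9 TPM in overexpression, without overlap (log2 fold change -0.28 ± 0.094 SE, limma adjusted p = 0.186). Mlxip, a glucose-sensing partner of MLX, was at -0.20, Mlx itself at 0.16 and Mxd4, the most abundant MAX partner of the list at 68.4 TPM in wild type, at -0.015. Of 6 other factors that bind CACGTG, 0 had such a p in either direction, and the median was -0.022. Npas2 of the same list missed the filter through its overexpression libraries, with means of 1.12 and 0.679 TPM in wild type and overexpression, without overlap. With no filter 1 of 7 was lower at such a p, where 13.2% of all genes in that fit had one in either direction. The sterol regulators Srebf1 and Srebf2 were at -0.15 and -0.041, and Bhlhe40, a clock output repressor, at 0.22.

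Among 21 genes of the nutrient signalling that controls MiT/TFE factors, 1 was higher at an unadjusted p under 0.05 and 0 lower. Of all tested genes 10.6% were higher at such a p. The list's median was 0.024. The count was 2 without wild-type replicate 3, where 1683 of the 13131 tested genes had such a p in either direction. It was 3 without overexpression replicate 2, where 2101 of the 13131 did. Neither count was a larger share of its list than that of all tested genes. The gene higher with all libraries was Rheb, the GTPase that activates mTORC1. Rheb stood at 71.2, 77.8 and 78.2 TPM in wild type and at 93.8, 98.9 and 94.0 TPM in overexpression. The genotypes were well apart, with a log2 fold change of 0.33 ± 0.064 (SE), an unadjusted p of 0.0011 and an adjusted p of 0.128 by limma. Without overexpression replicate 3 it passed the adjusted threshold, as did 789 of all tested genes, and 2 genes of the list were higher and 2 lower at an unadjusted p under 0.05, where 25.6% of all tested genes had one. Mcoln1, the lysosomal calcium channel that signals to TFEB through calcineurin, stood at 52.7, 60.2 and 56.9 TPM in wild type and at 49.2, 38.4 and 52.6 TPM in overexpression, just without overlap (-0.28, adjusted p = 0.258). The calcineurin subunit gene Ppp3ca was at -0.17, and Ywhaz, a 14-3-3 protein that can hold phosphorylated factors in the cytoplasm, at 0.088.

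CLEAR genes, the lysosome and autophagy targets of TFEB and TFE3, showed no common direction. Of 39 tested, 5 were higher and 1 lower at an unadjusted p under 0.05, a share below the 19.5% of all tested genes, and the median log2 fold change was 0.0035. The most abundant, cathepsin D (Ctsd) and the membrane protein Lamp1, had means of 1633 and 1060 TPM in wild type, beside 1637 and 1034 TPM in overexpression. Those higher were Atp6v0d2, a proton pump subunit of macrophages and osteoclasts (1.22), Gpnmb (0.53), the protease gene Ctsb (0.44), the pump subunit gene Atp6v1b2 (0.25) and the autophagy gene Wipi1 (0.18). The lower one was Tpp1, a lysosomal peptidase, at 347 ± 23.6 and 274 ± 35.1 TPM (SD, n = 3 each; -0.35). Atp6v0d2 passed the filter only through its overexpression libraries, and with no filter 4 of 40 were higher and 1 lower at such a p. Of all genes in that fit 13.2% had one in either direction. Without overexpression replicate 3, 6 of 39 were higher and 5 lower at such a p, where 25.6% of all tested genes had one, and Atp6v0d2, Gpnmb and Tpp1 were among the 789 genes that passed the adjusted threshold. The count of 5 higher was 2 without overexpression replicate 1 or without wild-type replicate 1 or 2, and 3 without wild-type replicate 3. In those fits 12.8% to 14.6% of all tested genes had such a p in either direction. Split by promoter, the 14 with CACGTG had a median of -0.036 and 0 genes at such a p, and the 15 without it 0.0040, with 2 higher and 1 lower. Tested CLEAR genes without a promoter entry are in neither part, so only 2 of the 5 higher genes appear there. Over all tested genes with a promoter entry the medians were -0.0078 and -0.011. Of the 1159 with the word, 102 were higher and 92 lower at such a p, and of the 8747 without it 925 and 789.

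Of the 10 genes listed as MITF targets in osteoclasts and macrophages, some were higher in overexpression and others were not, and none passed the adjusted threshold of limma with all 6 libraries. Fitted with no filter on low genes, 2 of the 10 were higher at an unadjusted p under 0.05 and 0 lower, where 13.2% of all genes in that fit had such a p in either direction, and the median was 0.14. Oscar, Ocstamp and Dcstamp were below the filter. Atp6v0d2, with a wild-type mean of 0.767 TPM, passed it only through its overexpression libraries, so the 7 genes that passed are no fair sample of the list. Among those 7 the count at such a p was 4, but it was 1 without any single library other than overexpression replicate 3. Without that replicate it was 4, where 25.6% of all tested genes had such a p. At a mean of at least 5 TPM the list's median was -0.027 over 5 genes.

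Atp6v0d2 stood at 0.582, 1.02 and 0.696 TPM in wild type and at 4.60, 4.09 and 1.40 TPM in overexpression, and Slc37a2, a sugar phosphate transporter gene, at 2.88, 3.13 and 3.28 and at 9.05, 6.89 and 3.31 TPM. Gpnmb, a glycoprotein of lipid-laden macrophages, stood at 342, 370 and 333 TPM in wild type and at 684, 528 and 355 TPM in overexpression. Ctsk, the collagenase of osteoclasts, had a log2 fold change of 0.75. In these 4 genes, replicate 3 of overexpression had the lowest value of its group, as for the macrophage markers, whose summed level was 1174 TPM there against 3733 and 3030 TPM. The part of macrophage RNA in these values was not tested. Ostm1 and Acp5, which are needed for or made in bone resorption, were at -0.071 and -0.045, and the chloride exchanger gene Clcn7 at -0.027. Atp6v0d2, Gpnmb and Clcn7 are on the CLEAR list as well.

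MYC target genes went in both directions. Of 28 tested, 3 were higher and 2 lower at an unadjusted p under 0.05, a share near the 19.5% of all tested genes, with a median of 0.010, and the summed level of the list lay between 4450 and 4616 TPM in wild type and between 4515 and 4637 TPM in overexpression. Without overexpression replicate 3, 3 were higher and 4 lower, where 25.6% of all tested genes had such a p. Dkc1, a pseudouridine synthase of ribosomal RNA, averaged 58.4 ± 2.06 TPM in the wild-type and 48.6 ± 1.81 TPM in the overexpression libraries (SD, n = 3 each; -0.26 ± 0.064 SE, limma adjusted p = 0.131), and Prmt1, an arginine methyltransferase, at -0.16. The mitochondrial chaperone gene Hspd1 was at 0.22, the cyclin gene Ccnd2 at 0.29 and the lactate dehydrogenase gene Ldha at 0.25. Npm1, a nucleolar protein gene and the most abundant of the list, averaged 1162 and 1147 TPM in wild type and overexpression. The cyclin partner gene Cdk4 was at -0.18. Among the 10 markers of cycling cells, 2 were lower at an unadjusted p under 0.05 and 0 higher, with a median of -0.10. Of all tested genes 8.94% were lower and 10.6% higher at such a p.

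Of 8 tested genes listed as USF targets, 1 was higher and 3 lower at an unadjusted p under 0.05, beside 10.6% and 8.94% of all tested genes, with a median of -0.19. Without overexpression replicate 2 the median was -0.045 and 1 was lower. Also 1 was lower without overexpression replicate 1 or without wild-type replicate 1. Fasn, the fatty acid synthase gene, was at -0.19 and Lipe, the hormone-sensitive lipase gene, at -0.55. Lipe stood at 8.319, 8.395 and 4.665 TPM in wild type and at 4.224, 4.121 and 4.94 TPM in overexpression. Its wild-type replicate 3 thus lay within the overexpression range. Cdkn2a, a cell cycle inhibitor locus, stood at 12.6, 14.8 and 13.1 TPM in wild type and at 24.1, 27.2 and 15.6 TPM in overexpression (0.65).

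**Figure D5:**
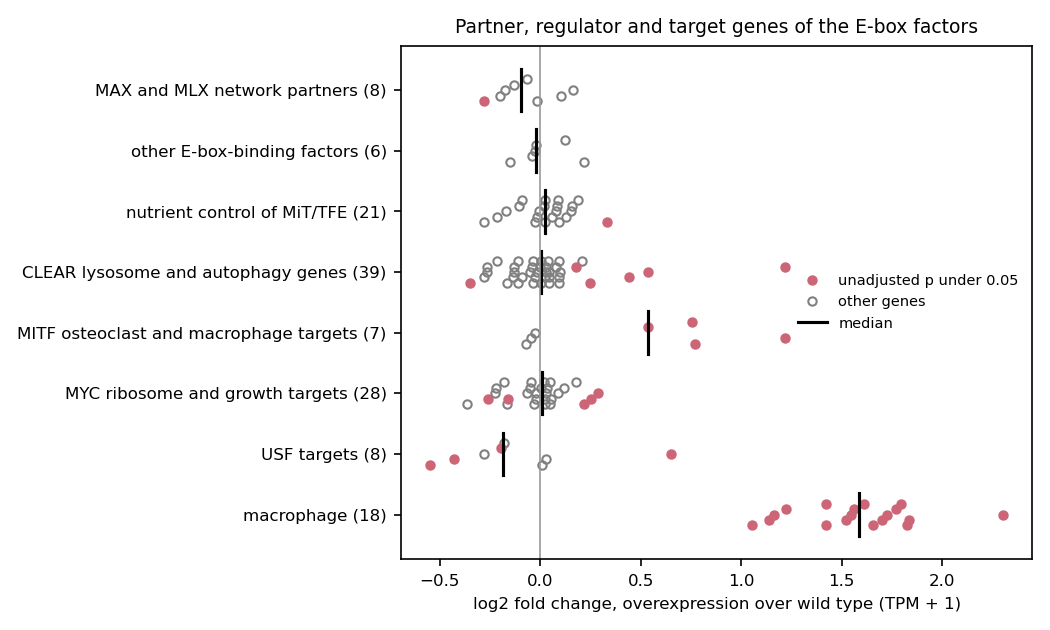
Log2 fold change on the log2(TPM + 1) scale, overexpression over wild type, of the tested genes in each partner, regulator and target list and of the macrophage markers, with the number of genes in brackets, the median as a bar and genes at an unadjusted p under 0.05 filled. Medians of the MITF and USF targets are 0.53 and -0.19 here but 0.14 with no filter on low genes and -0.045 without overexpression replicate 2; the macrophage markers have a median of 1.59.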

How the data were processed

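RNA was measured in 3 and ATAC-seq in 2 mice per genotype. Genotypes were taken from the genotype label and mouse numbers from the titles. Nothing says that equal numbers pair mice across genotypes, and all libraries carry batch label 1. The authors deposited TPM per gene and library, made with kallisto according to the labels, with build mm10 per the submitters' processing notes. The sources used here give neither version nor annotation, and read number cannot be recovered from TPM, so depth is unknown. TPM are relative to the library total, so abundant genes that differ shift all others.

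For ATAC-seq the authors deposited, per the file headers, counts of motif sites searched and called bound, a mean footprint score per genotype, a change score and a p-value, in the layout of TOBIAS BINDetect. The mice of a genotype were merged there, and the sources used here do not state the peak caller, the correction for transposase insertion or the bound threshold. The ratio of mean scores was computed here as log2 of overexpression over wild type, with a cutoff of 0.1 for counts of motifs.

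The 13131 genes that averaged 1 TPM or more were fitted on log2(TPM + 1) in limma (version 3.58.1, R version 4.3.3) with a mean-variance trend, two-sided, with Benjamini-Hochberg adjustment over all tested genes and a threshold of 0.05. This scale understates changes of low genes. The fit was tested on simulated data. Wilson intervals, promoter words and figures used Python 3.11.15 with scipy 1.17.1, pandas 2.3.3 and matplotlib 3.10.9. Positions and promoters came from RefSeq tables of GRCm38.p6, in which 8 of 10 members had a promoter entry; those of Myc and Usf2 are not used here. Named genes are the members, Adamts7, the 2 smallest p and 2 most abundant genes of each partner, regulator and target list (not of the cell type markers), and the 3 nearest profiles of the 3 members with the widest range. Genes that fell outside that rule, among them those making up a small count, were chosen after their values were seen. A gene of the USF target list that the rule names is not reported here. Alternatives were another pseudocount, filter, scaling, weighting, variance model, replicate block, leaving out each library, and other motif measures. The members and lists were chosen with earlier results of these data known.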

Additional observations from a re-analysis of the deposited data

How the results depend on the processing

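The number of genes called by limma over all genes was 2, and it was 1 with a mean of at least 5 TPM, 1 with the replicate block and 2728 with libraries weighted by quality. Leaving out 1 library at a time gave 1 to 789, the latter without overexpression replicate 3. The number of members at an unadjusted p under 0.05 was 1. It was 3 under quantile normalisation (with Mycn and Tfec), 2 under median-of-ratios scaling (with Mycn), 2 without trend in eBayes (with Mitf), 5 with quality weights, and 1 to 4 when 1 library was left out. The share of all tested genes at such a p ran from 12.8% without wild-type replicate 3 to 37.5% with quality weights. With quality weights Mycn, Max, Usf1 and Mitf passed the adjusted threshold, at 0.0281, 0.0341, 0.049 and 0.0189. Overexpression replicate 1 had a weight of 5.66 there, against 0.28 and 0.49 for replicates 2 and 3, so these calls rest mostly on 1 overexpression library. The log2 fold change of Myc was above 0 in 2 fits, at 0.032 with quality weights and between -0.068 and 0.018 when 1 library was left out; the other 9 members kept their direction in every fit that tested them. Mitf could not be tested at a mean of at least 5 TPM. The median log2 ratio of the E-box motifs, -0.053, was -0.086 after centring on all motifs, -0.12 with 1 value per motif cluster, and -0.0043 after centring on motifs of like wild-type score, a choice made after seeing the data. The cause of these differences was not tested.

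The mouse numbers gave no sign of pairing: deviations of same-numbered libraries from their group means had correlations of -0.022, 0.058 and 0.018 across genes, and not every library correlated best with its own number. With the replicate block 1 gene was called and Usf1 kept its log2 fold change of 0.29 (unadjusted p = 0.00799). With 3 libraries per genotype and unknown read depth, the 95% intervals of the members reach from -0.88 for Mycn to 1.00 for Mitf on the log2 scale.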
